A study of Mus musculus with 6 samples.

Results

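The genes described here encode chaperones of the endoplasmic reticulum (ER) and components of the unfolded protein response (UPR). They are 31 of the 54532 genes of the deposited table, found by their gene names, and each was found once. Liver RNA was sequenced from 3 g*Spns1*-cKO mice and from 3 controls, 1 library per mouse. SPNS1 is a lysosomal transporter of lysophospholipids. The g*Spns1*-cKO mice carried *Spns1* fl/fl alleles, with loxP sites around exon 3, and the Rosa26Cre-ERT2 allele, from which a tamoxifen-activated Cre is expressed in the whole body. Deletion depended on tamoxifen and was induced by intraperitoneal injections in the second and the third week after birth. The methods use *Spns1* fl/fl littermates without Cre as controls, whereas the sample labels call the controls WT. All mice were on a C57BL/6 background. Neither the labels nor the methods give the age or sex of the sequenced mice, or say whether the controls received tamoxifen.

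Proteins that enter the secretory pathway pass through the Sec61 channel into the ER, where HSP70 and HSP90 chaperones, calnexin and calreticulin, and protein disulfide isomerases fold them. Proteins that fail to fold are returned to the cytosol and degraded, a route called ER-associated degradation. Unfolded proteins in the ER activate the sensors IRE1 (encoded by *Ern1*), PERK (*Eif2ak3*) and ATF6, and the factors XBP1 and cleaved ATF6 raise transcription of many of the chaperone genes through short promoter elements. Hepatocytes secrete most plasma proteins and hold much ER.

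The main promoter element is the ER stress response element (ERSE), CCAAT followed after 9 unspecified bases by CCACG. A shorter form is ERSE-II, ATTGG followed after 1 unspecified base by CCACG. Both contain CCACG. RefSeq promoter windows (GRCm38.p6, from 250 bases before to 50 bases after the start) were found for 26 of the 31 genes; *Hyou1*, *Manf*, *Derl1*, *Atf6* and *Sec61a1* had no entry. An ERSE on either strand was in the window of 9 of the 26 genes (34.6%), against 0.137% of the 27025 genes with a window. ERSE-II was in 2 (7.69%), against 0.0444%. CCACG alone was in 21 of the 26 (80.8%), against 35.5%. The core of the UPR element, TGACGTG, was found only in *Hspa5* among the members (3.85%, against 2.22% of all genes), and TGACGTCA in none (2.03% of all genes). TGATGNAAN, the core of the amino acid response element, was in *Herpud1* only (3.85%, against 4.5%). The members were chosen as chaperone and UPR genes, many of which are known to be driven through such elements, so their higher shares are no result of these data. The all-gene shares include the members: 9 of the 37 genes with an ERSE are members. The ERSE matches are shown for reference. They are written in the orientation of the element, with its fixed bases in capitals:
*Hspa5*, chr2:34772025-34772043: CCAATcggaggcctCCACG
*Calr*, chr8:84847075-84847093: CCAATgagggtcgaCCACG
*Pdia6*, chr12:17266491-17266509: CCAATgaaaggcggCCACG
*Hsp90b1*, chr10:86705638-86705656: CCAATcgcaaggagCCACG
*Hsp90b1*, chr10:86705533-86705551: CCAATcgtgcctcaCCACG
*Canx*, chr11:50325800-50325818: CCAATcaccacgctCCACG
*Dnajc3*, chr14:118937827-118937845: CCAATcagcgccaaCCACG
*Creld2*, chr15:88819520-88819538: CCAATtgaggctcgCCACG
*Syvn1*, chr19:6046532-6046550: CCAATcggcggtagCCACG
*Derl3*, chr10:75893242-75893260: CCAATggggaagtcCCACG
and the ERSE-II matches:
*Herpud1*, chr8:94386377-94386387: ATTGGgCCACG
*Dnajb11*, chr16:22857852-22857862: ATTGGcCCACG

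Whole windows are shown for *Hspa5* and *Calr*, which both hold an ERSE, and for both genes that rose, 5′ to 3′ on the strand of the gene, with ERSE, ERSE-II and TGACGTG in capitals:
*Hspa5*, chr2:34771840-34772139, plus strand: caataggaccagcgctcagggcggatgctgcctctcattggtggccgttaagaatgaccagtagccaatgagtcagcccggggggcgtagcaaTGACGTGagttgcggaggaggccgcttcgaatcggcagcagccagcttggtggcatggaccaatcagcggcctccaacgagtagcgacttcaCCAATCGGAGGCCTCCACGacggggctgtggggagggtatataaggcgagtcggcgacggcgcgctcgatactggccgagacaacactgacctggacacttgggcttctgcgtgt
*Calr*, chr8:84846882-84847181, minus strand: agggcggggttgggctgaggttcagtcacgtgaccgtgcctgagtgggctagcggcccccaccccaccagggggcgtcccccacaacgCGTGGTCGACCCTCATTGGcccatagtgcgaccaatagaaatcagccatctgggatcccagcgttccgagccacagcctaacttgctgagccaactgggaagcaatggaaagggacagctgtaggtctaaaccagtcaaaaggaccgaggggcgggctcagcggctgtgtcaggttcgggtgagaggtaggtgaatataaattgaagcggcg
*Eif2ak3*, chr6:70844265-70844564, plus strand: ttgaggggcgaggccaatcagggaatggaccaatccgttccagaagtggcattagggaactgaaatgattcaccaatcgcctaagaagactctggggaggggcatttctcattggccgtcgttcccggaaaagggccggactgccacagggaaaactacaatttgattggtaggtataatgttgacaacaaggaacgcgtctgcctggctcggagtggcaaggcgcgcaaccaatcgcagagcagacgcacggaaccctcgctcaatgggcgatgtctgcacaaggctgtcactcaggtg
*Dnajb9*, chr12:44210019-44210318, minus strand: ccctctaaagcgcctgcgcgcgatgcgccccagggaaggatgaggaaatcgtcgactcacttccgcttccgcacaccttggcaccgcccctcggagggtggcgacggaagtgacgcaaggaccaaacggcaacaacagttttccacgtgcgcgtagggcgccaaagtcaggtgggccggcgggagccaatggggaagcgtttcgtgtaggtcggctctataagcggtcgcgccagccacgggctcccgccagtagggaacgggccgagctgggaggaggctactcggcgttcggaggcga
The windows of *Eif2ak3* and *Dnajb9* held neither ERSE nor ERSE-II. That describes these letters in these windows alone.

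The libraries held between 30350002 and 35295611 counts. Levels are given as CPM, counts scaled by edgeR's TMM factors, and comparisons between genes as RPKM, the same values per 1000 bases of gene length. The TMM factors lay from 0.834 to 0.873 for controls and from 1.16 to 1.18 for g*Spns1*-cKO, so a value near no change depends on the scaling: with library size only, the all-gene median of the log2 fold change moved from 0.014 to 0.46, and 88.3% of all calls were higher in g*Spns1*-cKO livers instead of 50.9%. *Spns1*, the targeted gene, had 35.9, 50.7 and 34.6 CPM in controls and 17.8, 30.6 and 17.8 CPM in g*Spns1*-cKO livers, replicates 1 to 3 in this order here and below. The level fell by 0.87 on the log2 scale (standard error 0.25, adjusted p = 0.03 from edgeR), and g*Spns1*-cKO replicate 2 had the most *Spns1* of its group. Counts per gene cannot show the loss of exon 3. The marker counts that follow stand beside 21.3% of all genes called higher and 20.5% lower. Markers of hepatocytes were abundant, with a summed level of 102000 to 117000 CPM in control and 60500 to 72900 CPM in g*Spns1*-cKO livers. Of these 8 markers, 5 were lower in g*Spns1*-cKO livers and none was called higher. *Cps1* went the other way without being called (3160, 2490 and 2850 against 3490, 3950 and 3450 CPM, log2 fold change 0.36). All 8 macrophage markers were higher (192 to 287 against 640 to 925 CPM in sum), as were all 4 cholangiocyte markers (5.42 to 6.64 against 22.7 to 31.4 CPM), 5 of 7 stellate and fibroblast markers (53.3 to 85.8 against 124 to 204 CPM), 4 of 5 endothelial markers (135 to 146 against 193 to 231 CPM) and 3 of 3 tested neutrophil markers (2.99 to 4.64 against 8.76 to 14.3 CPM). The neutrophil marker *Ly6g* had 0, 2 and 0 counts in controls and 0 in every g*Spns1*-cKO library, too few to test. Of 5 T and NK cell markers, 1 was higher and 1 lower, with sums of 3.52 to 4.22 against 4.34 to 5.32 CPM. In whole liver, fewer cells of a type and less RNA per cell cannot be told apart, and the part that cell composition has in the differences below was not tested.

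All 31 genes had enough counts to be tested. *Eif2ak3* and *Dnajb9* rose in g*Spns1*-cKO livers, and *Calr*, *Pdia3*, *Pdia6*, *P4hb*, *Dnajb11*, *Herpud1*, *Derl3* and *Sec61b* fell (edgeR's quasi-likelihood test, adjusted p under 0.05 over all genes). These are 10 of 31 genes, 2 higher and 8 lower, whereas 41.8% of all 15449 genes tested passed, 21.3% higher and 20.5% lower. The share of members that passed was thus no larger than that of all genes. The groups did not overlap in 13 members, 2 higher and 11 lower, beside 54.1% of all genes, 27.1% higher and 26.9% lower. The median log2 fold change of the 31 genes was -0.11, beside 0.014 over all genes. With library size only it was 0.33 beside 0.46, and then 14 members were called higher and 2 lower, beside 7289 higher and 970 lower of all 15449 genes. The direction of 13 of the 31 genes changed under at least 1 of the other scalings. The 4 genes called in the same direction under all 5 scalings were *Eif2ak3* and *Dnajb9* (higher) and *Herpud1* and *Derl3* (lower).

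**Figure D1:**
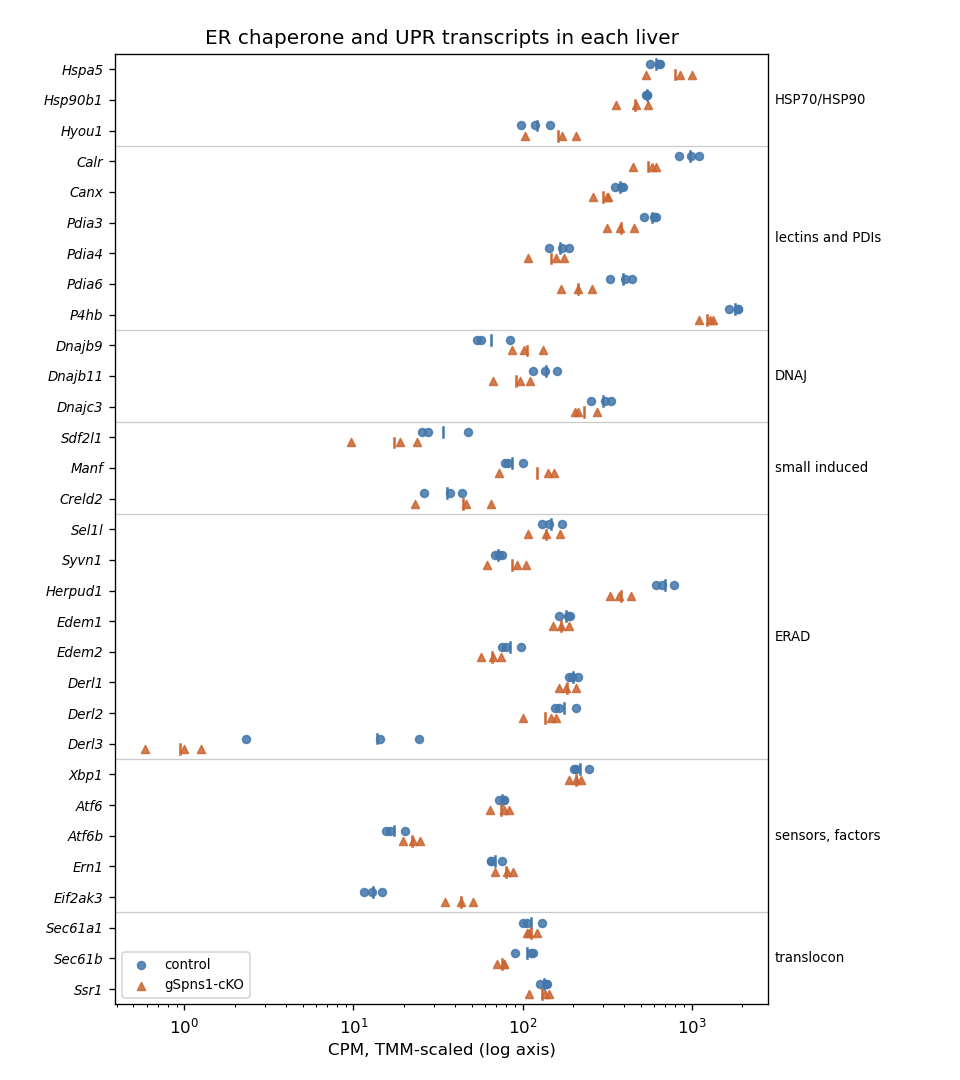
Level of each of the 31 transcripts in every liver, in CPM on a log axis, with circles for control and triangles for gSpns1-cKO livers and a short line at each group mean. *Eif2ak3* is the clearest separation upward (11.6 to 14.8 against 34.9 to 51.0 CPM), and *Calr*, *Pdia6*, *P4hb* and *Herpud1* separate downward.

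Among the sensors, *Eif2ak3* (ENSMUSG00000031668, chromosome 6, 70844515 to 70905245, plus strand), which encodes the kinase PERK that slows translation when unfolded proteins build up, changed most. It had 11.6, 12.8 and 14.8 CPM in controls and 43.3, 34.9 and 51.0 CPM in g*Spns1*-cKO livers. Every g*Spns1*-cKO liver was above every control liver. The level rose from 13.1 ± 1.59 to 43.1 ± 8.04 CPM (SD, n = 3), 3.30-fold, or 1.72 on the log2 scale (standard error 0.16; Benjamini-Hochberg adjusted p = 3.59e-05, edgeR quasi-likelihood). It was called in all 16 fits made, and leaving out any 1 mouse kept the log2 fold change between 1.58 and 1.85. *Ern1*, which encodes the nuclease and kinase IRE1, had 75.2, 64.9 and 65.4 CPM in control and 81.4, 68.4 and 88.3 CPM in g*Spns1*-cKO livers, and the groups overlapped (log2 fold change 0.21, standard error 0.12, edgeR adjusted p = 0.19). *Atf6*, whose cytosolic fragment is a transcription factor once released, was at 75.9 ± 3.01 CPM in control and 75.0 ± 9.61 CPM in g*Spns1*-cKO livers (SD, n = 3). Its log2 fold change was -0.02 with a standard error of 0.12, and with library size only it was 0.42 (adjusted p = 0.00978). *Atf6b*, its paralog, had 16.5, 20.2 and 15.6 CPM against 24.8, 19.6 and 22.6 CPM (log2 fold change 0.36, edgeR adjusted p = 0.0588), and only g*Spns1*-cKO replicate 2 lay within the control range. *Xbp1*, the transcription factor gene whose mRNA is spliced by IRE1, was at 218 ± 25.4 and 206 ± 17.1 CPM (log2 fold change -0.09, standard error 0.13), and with library size only at a log2 fold change of 0.36 (adjusted p = 0.0428). Counts per gene do not separate the spliced from the unspliced *Xbp1* transcript. Per length, *Eif2ak3* went from the lowest of the 31 genes in control livers (2.17 ± 0.265 RPKM) to 7.14 ± 1.33 RPKM, in the range of *Atf6b* (8.10 ± 0.95 RPKM) and *Atf6* (8.12 ± 1.04 RPKM) in the same livers.

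The HSP70 and HSP90 chaperones did not pass the test. *Hspa5* (ENSMUSG00000026864, chromosome 2, 34771970 to 34777547, plus strand) encodes BiP, the ER HSP70 chaperone that also holds the sensors inactive. It had 566, 647 and 638 CPM in controls and 849, 541 and 1010 CPM in g*Spns1*-cKO livers. Replicates 1 and 3 of the g*Spns1*-cKO livers were above all controls, and replicate 2 was below all of them. The log2 fold change was 0.38 (standard error 0.21, edgeR adjusted p = 0.177). With 1 mouse left out at a time it ran from 0.17 to 0.60, with an adjusted p of up to 0.584. Of these fits, *Hspa5* was called only without g*Spns1*-cKO replicate 2 (0.60, adjusted p = 0.0157), a liver singled out after its low values were seen. With library size only the log2 fold change was 0.82 (adjusted p = 0.00763). *Hyou1*, a large HSP70 relative that exchanges the nucleotide of BiP, had 98.6, 146 and 119 CPM against 172, 104 and 208 CPM, with the same liver low. Its log2 fold change was 0.41 (standard error 0.26, edgeR adjusted p = 0.244), and 0.18 to 0.65 with 1 mouse left out at a time. Of these fits, *Hyou1* was called only without g*Spns1*-cKO replicate 2 (0.65, adjusted p = 0.0139). *Hsp90b1*, the ER HSP90 (GRP94), had 538, 544 and 548 CPM against 472, 356 and 553 CPM, so the controls differed by little and the g*Spns1*-cKO livers spread below and around them (log2 fold change -0.24, standard error 0.17, edgeR adjusted p = 0.277). With library size only its direction turned (log2 fold change 0.20).

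Of the 6 lectin chaperones and disulfide isomerases, 4 fell and none rose, beside 20.5% of all genes called lower and 21.3% higher. The groups did not overlap in 5, all lower, beside 26.9% of all genes. With library size only, none of the 6 was called. *Calr* (ENSMUSG00000003814, chromosome 8, 84841850 to 84846934, minus strand) encodes calreticulin, the soluble lectin chaperone. It had 840, 1100 and 997 CPM in controls and 584, 451 and 619 CPM in g*Spns1*-cKO livers, with no overlap. Its log2 fold change was -0.83 (standard error 0.17, edgeR adjusted p = 0.00341), a 1.78-fold decrease, and with library size only -0.39 (adjusted p = 0.0719). *Pdia6*, a disulfide isomerase, had 330, 446 and 405 CPM against 214, 169 and 257 CPM. It fell 1.85-fold (log2 fold change -0.89, standard error 0.18, edgeR adjusted p = 0.00291). Both *Calr* and *Pdia6* were called with each mouse left out, but with library size only *Pdia6* was at -0.44 and was not called (adjusted p = 0.0514). *P4hb*, the classical protein disulfide isomerase and the most abundant member per length, went from 634 ± 47.7 to 433 ± 43.5 RPKM (SD, n = 3); in CPM it had 1660, 1890 and 1890 against 1100, 1280 and 1340. Its log2 fold change was -0.55 (standard error 0.15, edgeR adjusted p = 0.0153). *Pdia3*, which works with the lectin chaperones, had 526, 616 and 600 CPM against 378, 315 and 459 CPM (log2 fold change -0.60, standard error 0.16, edgeR adjusted p = 0.0139). Without control replicate 2 or control replicate 3, neither was called (adjusted p of 0.05 and 0.0589 for *P4hb*, and of 0.05 and 0.0509 for *Pdia3*). With library size only, *P4hb* and *Pdia3* stayed negative at -0.11 and -0.15 but were not called. *Canx*, the membrane-bound lectin chaperone, had 351, 392 and 385 CPM against 319, 261 and 318 CPM. Its groups did not overlap under TMM, but it did not pass (log2 fold change -0.33, edgeR adjusted p = 0.0707), and with library size only its direction turned (0.12). *Pdia4* overlapped between groups, at 168 ± 23.2 and 147 ± 35.7 CPM.

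The 3 DNAJ co-chaperones of BiP split. *Dnajb9* (ENSMUSG00000014905, chromosome 12, 44205559 to 44210326, minus strand) encodes ERdj4, which acts with BiP in degradation and in restraining IRE1. It had 53.8, 56.9 and 84.1 CPM in control and 102, 86.2 and 132 CPM in g*Spns1*-cKO livers. The lowest g*Spns1*-cKO liver was just above the highest control. The log2 fold change was 0.72 (standard error 0.21, edgeR adjusted p = 0.0244), 1.64-fold, and leaving out 1 mouse at a time put it between 0.54 and 0.93. *Dnajb9* was not called without control replicate 1 or 2 (adjusted p = 0.0761 and 0.0956) or without g*Spns1*-cKO replicate 1 or 3 (adjusted p = 0.0574 and 0.0715). *Dnajb11*, which encodes ERdj3, a co-chaperone that binds unfolded proteins, fell from 115, 161 and 135 CPM to 96.7, 66.9 and 111 CPM (log2 fold change -0.58, standard error 0.19, edgeR adjusted p = 0.0382). It was not called without control replicate 2 or 3 (adjusted p = 0.129 and 0.087) or without g*Spns1*-cKO replicate 1 or 2 (adjusted p = 0.0693 and 0.0709). The *Dnajb11* difference was -0.14 with library size only (adjusted p = 0.56), without genes over 0.5% of counts -0.20 (0.404), and with upper-quartile scaling -0.45 (0.0817). *Dnajc3*, which encodes p58IPK, an inhibitor of PERK and co-chaperone, had 254, 309 and 334 CPM against 203, 213 and 276 CPM (log2 fold change -0.37, edgeR adjusted p = 0.0805) with overlapping groups.

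The 3 small stress-induced proteins did not pass. *Manf*, a secreted factor induced by ER stress, had 78.5, 101 and 82.2 CPM in controls and 142, 72.2 and 153 CPM in g*Spns1*-cKO livers, with replicate 2 again below all controls (log2 fold change 0.49, standard error 0.28, edgeR adjusted p = 0.207). With 1 mouse left out at a time it ran from 0.295 to 0.76. Of these fits, *Manf* was called only without that liver (0.76, edgeR adjusted p = 0.00198). *Manf* shares 4.14% of its exon bases with *Dcaf1* on the opposite strand, which had 0.237 times its counts. *Creld2* had 26.2, 44.0 and 37.3 CPM against 46.3, 23.1 and 64.9 CPM, with a wide spread in both groups (log2 fold change 0.32, standard error 0.42). *Sdf2l1*, a partner of BiP and ERdj3, had 25.5, 47.9 and 27.7 CPM against 18.8, 9.70 and 23.7 CPM. Its groups did not overlap, yet the difference was not called (log2 fold change -0.95, standard error 0.41, edgeR adjusted p = 0.124).

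Of the 8 genes of ER-associated degradation, *Herpud1* and *Derl3* fell and none rose, beside 20.5% of all genes called lower and 21.3% higher. *Herpud1* (ENSMUSG00000031770, chromosome 8, 94386438 to 94395377, plus strand) encodes a membrane scaffold of the degradation complex. It had 619, 671 and 788 CPM in control and 331, 373 and 439 CPM in g*Spns1*-cKO livers. The groups were well apart, and the level fell 1.82-fold (log2 fold change -0.86, standard error 0.16, edgeR adjusted p = 0.00185). *Herpud1* was called in all 16 fits. *Derl3* (ENSMUSG00000009092, chromosome 10, 75893413 to 75895941, plus strand), a derlin of the retrotranslocation machinery, had 65, 443 and 618 counts in controls and 21, 48 and 39 in g*Spns1*-cKO livers, or 2.31, 14.4 and 24.4 against 0.584, 1.25 and 0.992 CPM. The control livers differed widely (SD 11.1 around a mean of 13.7 CPM, a coefficient of variation of 80.8%), with control replicate 1 close to the g*Spns1*-cKO livers. The log2 fold change was -3.85 (standard error 1.00, edgeR adjusted p = 0.0359). It was not called without control replicate 2 (adjusted p = 0.0796) or without g*Spns1*-cKO replicate 1, 2 or 3 (adjusted p = 0.125, 0.117 and 0.133), nor when all genes with at least 1 count in any library were kept (adjusted p = 0.0778). *Derl3* is known for high expression in secretory cells such as plasma cells. Of 10 plasma and B cell markers, *Jchain* (19.4 ± 4.09 against 46.1 ± 10.2 CPM) and *Igkc* (58.8 ± 8.10 against 112 ± 34.8 CPM) were higher in g*Spns1*-cKO livers and none was called lower. The sum of the 10 was 341 to 410 against 345 to 448 CPM, of which *Sdc1*, which was not called, made up 279 ± 41.6 and 226 ± 18.1 CPM. The part of these cells in the *Derl3* result was not tested. The paralogs *Derl1* and *Derl2* were at 199 ± 12.6 and 184 ± 22.1 CPM, and at 176 ± 26.9 and 135 ± 30.3 CPM. Neither *Derl1* (log2 fold change -0.11, standard error 0.13) nor *Derl2* (-0.38, standard error 0.18) was called. The ubiquitin ligase gene *Syvn1* (HRD1) had 68.5, 75.5 and 72.2 CPM against 92.3, 61.6 and 105 CPM, the same pattern as *Hspa5*. Its log2 fold change was 0.26 (standard error 0.17), and 0.094 to 0.46 with 1 mouse left out at a time. Of these fits, *Syvn1* was called only without g*Spns1*-cKO replicate 2 (0.46, edgeR adjusted p = 0.0145). Its partner *Sel1l* was at 148 ± 20.8 and 137 ± 29.4 CPM. *Edem1* and *Edem2*, which act on mannose-trimmed glycoproteins, were at 181 ± 13.8 and 170 ± 18.6 CPM, and at 84.4 ± 12.2 and 65.8 ± 8.69 CPM. *Edem1* had overlapping groups and *Edem2* did not, and neither was called (log2 fold changes -0.09 and -0.36).

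In the translocon, *Sec61b*, the small β subunit of the channel, fell from 112, 115 and 90.2 CPM to 77.4, 70.9 and 77.5 CPM (log2 fold change -0.49, standard error 0.12, edgeR adjusted p = 0.0083). It was called with each mouse left out, but with library size only its log2 fold change was -0.05. The channel subunit *Sec61a1* was at 113 ± 15.7 and 112 ± 8.07 CPM, and *Ssr1*, of the translocon-associated complex, at 134 ± 6.45 and 129 ± 18.5 CPM. Their log2 fold changes were -0.01 and -0.05, each with a standard error of 0.13.

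**Figure D2:**
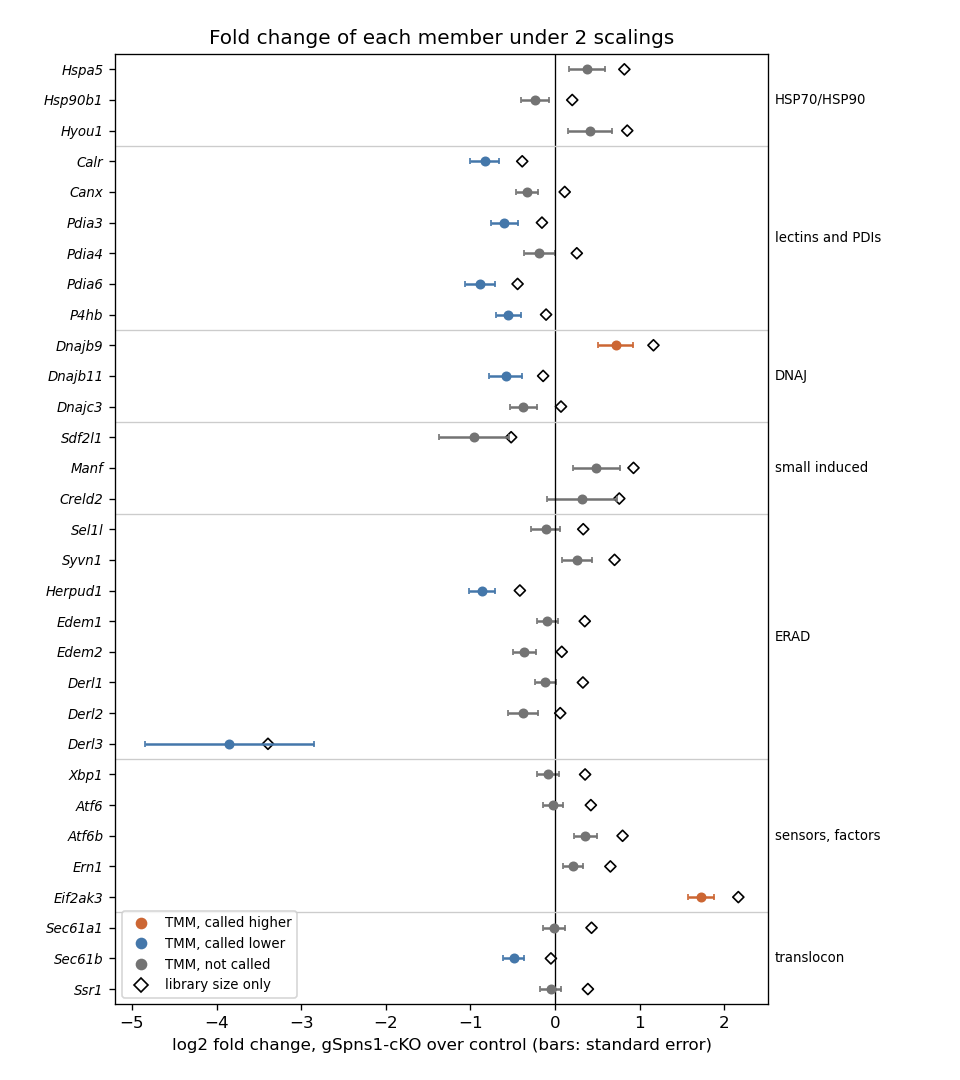
Log2 fold change of each member with TMM scaling (filled circles, bars are standard errors, orange for called higher, blue for called lower, grey for not called) and with library size only (open diamonds). The diamonds lie to the right of the circles for all 31 genes, and *Eif2ak3*, *Dnajb9*, *Herpud1* and *Derl3* keep their side and their call in both.

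Ratios between members within a library do not depend on the scaling. The 5 ratios that follow were chosen after the values were seen, from members whose values lay apart, so they are a description with no test. *Hspa5* counts were 0.673, 0.587 and 0.64 times those of *Calr* in controls and 1.45, 1.2 and 1.64 times in g*Spns1*-cKO livers. Every g*Spns1*-cKO liver was above every control, replicate 2 included, and the mean log2 ratio was 1.17 higher. Against *Pdia6*, *Hspa5* was at 1.71, 1.45 and 1.57 in control and 3.96, 3.21 and 3.95 in g*Spns1*-cKO livers. *Dnajb9* was at 0.47, 0.354 and 0.621 times *Dnajb11* in controls and at 1.06, 1.29 and 1.19 times in g*Spns1*-cKO livers, so that their order reversed. *Eif2ak3* was at 0.155, 0.196 and 0.226 times *Ern1* in control and 0.532, 0.51 and 0.577 times in g*Spns1*-cKO livers. *Derl3* was at 0.0119, 0.0676 and 0.129 times *Derl1* in controls, above all g*Spns1*-cKO livers at 0.00323, 0.00765 and 0.00478 times. Of the counts of all 31 genes, *Hspa5* held 7.25%, 7.14% and 7.23% in controls and 12.5%, 9.44% and 13% in g*Spns1*-cKO livers. The share of *Herpud1* was 7.94%, 7.41% and 8.93% against 4.89%, 6.51% and 5.61%.

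**Figure D3:**
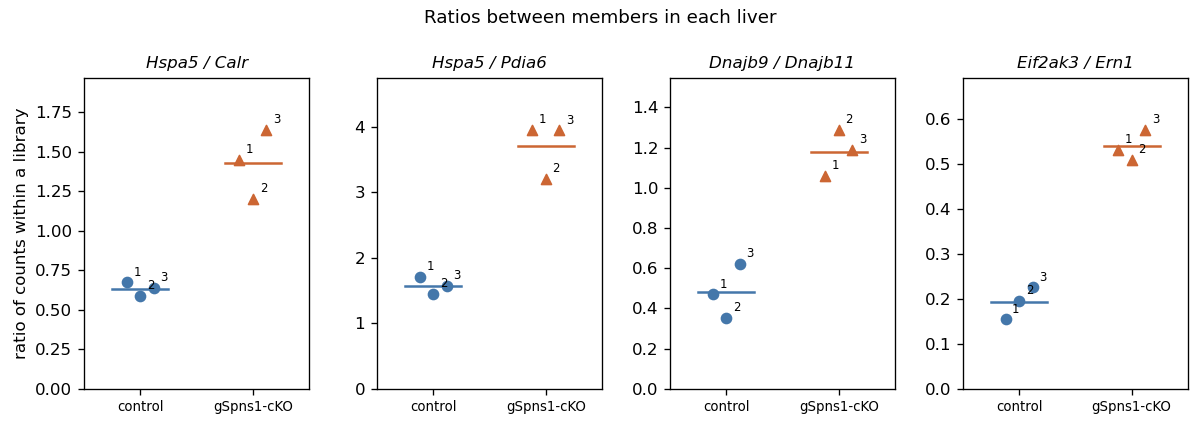
Ratio of the counts of 2 members within each library for 4 pairs, with replicate numbers beside the points and a line at each group mean. In each pair the 3 gSpns1-cKO livers lie above the 3 control livers, at 1.2 to 1.64 against 0.587 to 0.673 for *Hspa5* over *Calr*.

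The g*Spns1*-cKO livers differed more among themselves in these genes than the control livers did. The median coefficient of variation of the 31 genes was 13.4% in control and 18.7% in g*Spns1*-cKO livers, beside 14% and 13.1% over all genes. Replicate 2 was the lowest of the g*Spns1*-cKO livers in 26 of the 31 genes (83.9%). The share was 54.4% for the 103 other ER genes described below and 34.7% for all genes. Replicate 3 was the highest in 24 (77.4%), beside 43.7% of the other ER genes and 25.2% of all genes. Among controls, replicate 1 was the lowest in 23 of 31 (74.2%), beside 48.5% of the other ER genes and 33.2% of all genes. In the g*Spns1*-cKO livers the coefficient of variation reached 46.7% for *Creld2*, 40.9% for *Sdf2l1*, 35.8% for *Manf*, 33% for *Hyou1* and 29.9% for *Hspa5*, whereas it was 8.3% for *Xbp1*, 7.2% for *Sec61a1* and 4.98% for *Sec61b*. Without replicate 2, 7 of the 31 members were called higher and 6 lower, beside 2780 higher and 2730 lower of all 15766 genes tested in that fit. *Hspa5*, *Hyou1*, *Manf*, *Syvn1* and *Atf6b* joined the genes called higher, and *Dnajb11* and *Derl3* were no longer called. With any other mouse left out, *Hspa5*, *Hyou1*, *Manf* and *Syvn1* were not called. Replicate 2 is also the g*Spns1*-cKO liver with the most *Spns1*, and whether this has a part in its chaperone levels was not tested.

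The genes with an ERSE did not move as 1 group. Of the 9, *Calr*, *Pdia6* and *Derl3* fell, none rose, and log2 fold changes ran from -3.85 (*Derl3*) to 0.38 (*Hspa5*), with a median of -0.33. Both genes with ERSE-II, *Herpud1* and *Dnajb11*, fell, but *Dnajb11* was not called with library size only (-0.14, edgeR adjusted p = 0.56). Of the 15 genes with neither element, 2 rose (*Eif2ak3* and *Dnajb9*) and 3 fell. Over all genes tested, 21.3% were called higher and 20.5% lower. With so few genes per element, these counts do not link an element to a direction. No test was made of the elements.

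**Figure D4:**
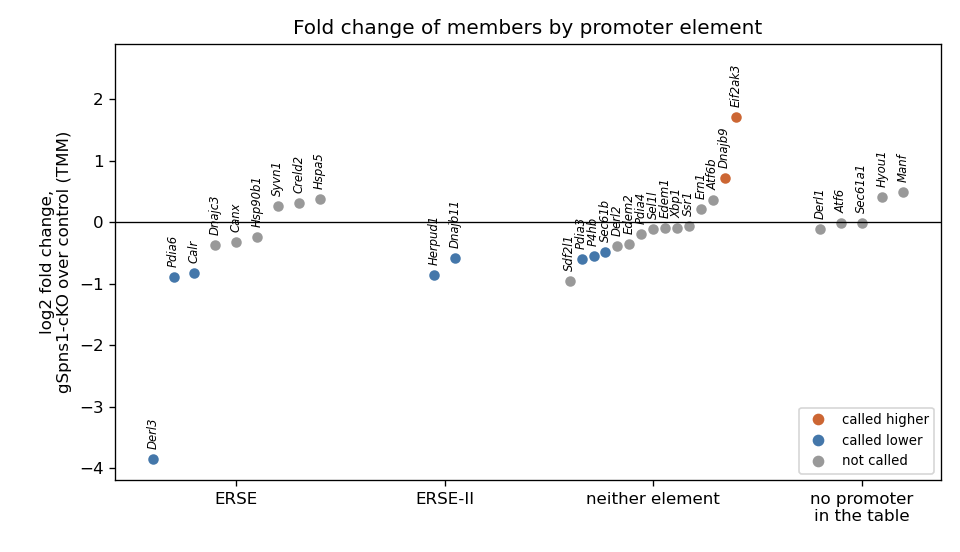
Log2 fold change (TMM) of the 31 members, grouped by the element in the promoter window and coloured by the call. Members with an ERSE spread from -3.85 to 0.38, and both genes called higher are among the 15 without either element.

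Other genes of ER folding, glycosylation and degradation were taken from 7 lists. Of 108 listed genes 103 could be tested; *Pdia2*, *Agr2* and *Ern2* had 0 counts in every library, and *Erp27* and *Clgn* too few. Of the 103, 13 rose and 40 fell (edgeR, adjusted p under 0.05 over all genes), with a median log2 fold change of -0.24. Over all genes tested, 21.3% were called higher and 20.5% lower, and the counts of the 7 lists below stand beside these shares. With library size only, 39 of the 103 were higher and 8 lower, beside 7289 higher and 970 lower of all 15449 genes. In the translocon and signal peptidase list, 7 of 16 fell and 1 rose. *Tram2*, a translocon-associated protein gene, fell from 20.1 ± 5.54 to 7.88 ± 0.859 CPM (log2 fold change -1.35) and *Sec11c*, a signal peptidase subunit, from 40.5 ± 3.09 to 23.9 ± 2.44 CPM. *Sec61a2* rose (log2 fold change 1.02), but 19.9% of its exon bases overlap *Nudt5* on the opposite strand, which had 3.25 times its counts. Of 12 genes of the oligosaccharyltransferase complex, which attaches N-glycans, 4 fell, led by *Rpn1* (-0.67) and *Krtcap2* (-0.59), and *Ostc* (0.35) and *Stt3b* (0.32) rose.

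Among 15 other disulfide isomerases and ER oxidases, 6 fell and 4 rose. *Qsox1*, a sulfhydryl oxidase gene, fell from 621 ± 208 to 259 ± 21.7 CPM (log2 fold change -1.26, edgeR adjusted p = 0.00287), and *Prdx4*, an ER peroxiredoxin gene, from 92.5 ± 2.74 to 48.3 ± 5.05 CPM (-0.94, adjusted p = 0.000139). *Dnajc10*, which encodes the ER reductase ERdj5, had 27.3, 33.4 and 33.2 CPM in control and 59.6, 74.1 and 77.4 CPM in g*Spns1*-cKO livers. All g*Spns1*-cKO livers were well above the controls (log2 fold change 1.17, standard error 0.13, edgeR adjusted p = 0.000111). *Ero1l*, the oxidase that recharges disulfide isomerases, also rose (0.78). In the glycan trimming list 5 of 12 fell and none rose, among them *Prkcsh*, the β subunit of glucosidase II (-0.75), and *Calr3*, at 2.48 ± 0.656 and 1.15 ± 0.359 CPM. Of 20 other degradation genes 9 fell, among them the ubiquitin ligase gene *Rnf5* (-1.07), and 1 rose (*Ube2g2*, 0.37). Of 14 other co-chaperones and prolyl isomerases 5 fell, led by *Sil1*, a nucleotide exchange factor of BiP (-0.89), and *Fkbp2* (-0.62), and 2 rose, *Fkbp10* (1.14) and *Fkbp14* (0.53), both of which overlap genes on the opposite strand that had more counts.

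In the list of other sensors, proteases and stress targets, 4 of 14 fell and 3 rose. *Creb3l3*, a liver-enriched, ER-anchored transcription factor, had 339, 420 and 455 CPM in control and 172, 160 and 145 CPM in g*Spns1*-cKO livers (log2 fold change -1.35, standard error 0.15, edgeR adjusted p = 8.79e-05). *Tmbim6*, which encodes an ER membrane inhibitor of cell death, fell by 0.54 on the log2 scale. The *Creb3l3* relatives *Creb3l2* (0.74) and *Creb3l1* (1.39, at 0.946 ± 0.448 and 2.52 ± 0.538 CPM) rose. *Stc2*, under the level set for naming genes and named after its values were seen, was called higher on 1, 6 and 0 counts in control and 40, 24 and 38 in g*Spns1*-cKO livers. Some transcripts linked to PERK, likewise named after their values were seen, were not called: *Atf4* was at 128 ± 15.4 and 132 ± 4.25 CPM, *Ddit3* (CHOP) at 9.01 ± 1.76 and 9.22 ± 0.991 CPM, and *Trib3* at 6.21 ± 1.05 and 8.68 ± 4.14 CPM. They are not a full set of PERK targets, and counts do not show protein levels or PERK activity. Of the stress targets in this list, *Stc2* was called higher, as above, and *Ppp1r15b*, also named after its values were seen, lower (log2 fold change -0.46). *Ppp1r15a* (GADD34) was at 15.8 ± 1.35 and 12.5 ± 0.925 CPM (log2 fold change -0.34, edgeR adjusted p = 0.0523).

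**Figure D5:**
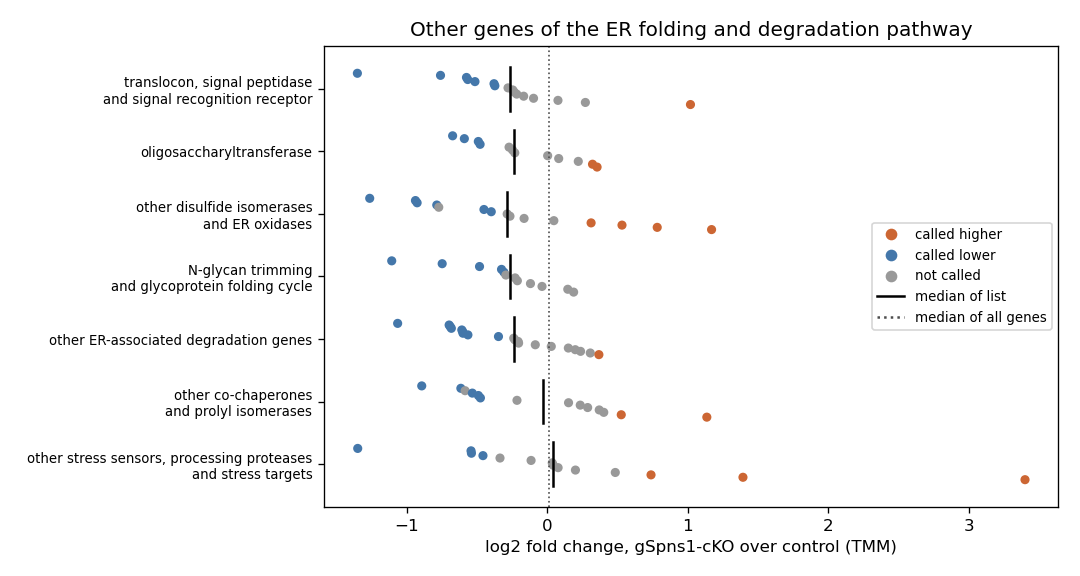
Log2 fold change (TMM) of the 103 tested genes in 7 other lists, with orange for called higher, blue for called lower and grey for not called; black lines are list medians and the dotted line is the median of all genes. Medians run from -0.29 for disulfide isomerases and oxidases to 0.04 for sensors and stress targets.

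Of 22 transcripts of abundant secreted hepatocyte proteins, the load of the ER in these cells, 13 fell and none rose, beside 20.5% of all genes called lower. The other 9 were not called, among them *Ahsg* (log2 fold change -0.01), *Kng1* (0.08) and *Trf* (0.33), named after their values were seen. Independently of the TMM factors, the summed share of the 22 in all counts was 16% to 17.5% in controls and 12.6% to 14.4% in g*Spns1*-cKO livers. The serine protease inhibitor *Serpina3k* fell most, from 14100 ± 725 to 2490 ± 533 CPM (log2 fold change -2.50, edgeR adjusted p = 1.84e-05), followed by *Hp* (haptoglobin; log2 fold change -1.71, edgeR adjusted p = 0.045). *Hp* had 3250, 13700 and 13100 CPM in controls, against 3290, 2810 and 3080 CPM. Control replicate 1 lay within the g*Spns1*-cKO range, so that the *Hp* difference rests on control replicates 2 and 3. Reads of *Serpina3k* can be shared with close paralogs. The share of all counts held by the 31 chaperone and UPR genes was 0.675%, 0.791% and 0.736% in control and 0.782%, 0.674% and 0.91% in g*Spns1*-cKO livers, with overlapping groups.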

How the data were processed

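Poly(A) RNA from the livers of 6 mice was sequenced by a commercial service. Per the labels, the submitters' processing notes name fastp, HISAT2 2.0.5, featureCounts 1.5.0-p3 and the build mm10; the strand setting is not given in the sources used here. The authors deposited whole-number counts per gene, not normalized. FPKM values and a comparison of the groups (fold changes and p-values) are also in the table and were not used. The gene length used for RPKM is the one the authors deposited. Of 58 genes named or checked, 55 had the same coordinates in GENCODE M21 (GRCm38).

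The tests used edgeR 4.0.16 under R 4.3.3. After filterByExpr and TMM scaling, groups were compared by the robust quasi-likelihood test with genotype as the sole term and Benjamini-Hochberg adjustment over all 15449 genes. The standard error is the log2 fold change divided by the square root of F. P-values set the group difference against the spread between mice within a group, which edgeR estimates in part from all genes. Libraries within a group all differed by more than counting noise (chi-square per gene 40.1 to 121). On simulated data with 200 changed genes for this comparison (15120 genes tested), 67.3% of 2-fold and 90.7% of 4-fold changes were recovered. Named genes of the other lists are the 2 most changed in each direction with a mean of at least 1 CPM. A gene that meets this rule is not reported here. DESeq2 1.42.0, limma 3.58.1 (voom), 4 other scalings, 2 filters, stricter limits, a replicate block and leaving out each mouse were tried. Deviations of same-numbered mice correlated at -0.028 to 0.037, which cannot decide whether these mice share a litter or a batch. The members and lists were chosen with earlier results of these data known.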

Additional observations from a re-analysis of the deposited data

How the results depend on the processing

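The median log2 fold change of the members and the *Spns1* result kept their direction and side of the threshold with DESeq2 size factors, DESeq2, limma-voom and at least 10 counts in every library. The numbers of members called higher and lower (2 and 8) were the same with DESeq2 size factors and changed little with DESeq2 and limma-voom. With at least 10 counts in every library they were 3 and 7, and *Dnajb11* was not called (edgeR adjusted p = 0.0511). Other scalings, filters and limits moved these results. With library size only, 14 members were higher and 2 lower (median 0.33), 39 and 8 of the other ER genes (median 0.21), and *Spns1* was at -0.43 (adjusted p = 0.213). Without genes over 0.5% of counts in the library size, 10 members were higher and 4 lower (median 0.27), 32 and 11 of the other ER genes (median 0.14), and *Spns1* was at -0.50 (adjusted p = 0.159). With upper-quartile scaling, 4 members and 22 other ER genes were higher, and *Spns1* was at -0.74 (adjusted p = 0.0635). Of all 15449 genes, 7289 were higher and 970 lower with library size only. The numbers were 6522 and 1129 without genes over 0.5% of counts, and 4111 and 2240 with upper-quartile scaling. Keeping genes with at least 1 count in any library gave 5 members higher and 10 lower, and *Derl3* was not called (adjusted p = 0.0778). At an adjusted p under 0.01, 1 member was higher and 4 lower, 5 other ER genes were higher, and *Spns1* (-0.87) was not called. At 2-fold, 1 member was higher and 1 lower, 5 and 5 of the other ER genes, and *Spns1* (-0.87) was not called.

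Directions of members that were not called turned as follows. With library size only the log2 fold change was 0.20 for *Hsp90b1*, 0.115 for *Canx*, 0.26 for *Pdia4*, 0.071 for *Dnajc3*, 0.33 for *Sel1l*, 0.35 for *Edem1*, 0.08 for *Edem2*, 0.33 for *Derl1*, 0.062 for *Derl2*, 0.36 for *Xbp1*, 0.42 for *Atf6*, 0.43 for *Sec61a1* and 0.39 for *Ssr1*. Without genes over 0.5% of counts it was 0.14 for *Hsp90b1*, 0.05 for *Canx*, 0.19 for *Pdia4*, 0.007 for *Dnajc3*, 0.27 for *Sel1l*, 0.29 for *Edem1*, 0.014 for *Edem2*, 0.265 for *Derl1*, 0.29 for *Xbp1*, 0.36 for *Atf6*, 0.37 for *Sec61a1* and 0.32 for *Ssr1*. With upper-quartile scaling it was 0.02 for *Sel1l*, 0.039 for *Edem1*, 0.018 for *Derl1*, 0.044 for *Xbp1*, 0.11 for *Atf6*, 0.12 for *Sec61a1* and 0.075 for *Ssr1*. With at least 10 counts in every library it was 0.024 for *Atf6* and 0.033 for *Sec61a1*. The cause was not tested.

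With each mouse left out in turn, 1 to 7 members were higher and 4 to 9 lower (median -0.28 to -0.02), 6 to 15 and 33 to 39 of the other ER genes (median -0.28 to -0.19), and *Spns1* ran from -1.18 to -0.68. The fewest members were called lower without control replicate 2 (4) and control replicate 3 (5). Over these fits *Creld2* ran from -0.049 to 0.631, *Xbp1* from -0.151 to 0.008, *Atf6* from -0.101 to 0.08, *Sec61a1* from -0.095 to 0.103 and *Ssr1* from -0.136 to 0.059. Directions turned for *Xbp1* (0.008) and *Sec61a1* (0.103) without control replicate 2, *Sec61a1* (0.026) without g*Spns1*-cKO replicate 1, *Sel1l* (0.035), *Atf6* (0.08), *Sec61a1* (0.009) and *Ssr1* (0.059) without g*Spns1*-cKO replicate 2, and *Creld2* (-0.049) without g*Spns1*-cKO replicate 3.

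With the replicate number as a block, 2 members were higher and 8 lower. *Dnajb11* was then not called (adjusted p = 0.0632) and *Derl2* was (adjusted p = 0.0446). Deviations of same-numbered mice correlated at 0.037, 0.033 and -0.028, and 2 of 3 control mice correlated best with their own number. With 3 mice per group, these values cannot decide whether same-numbered mice share a litter or a batch. In a simulation of this comparison with 200 changed genes, 67.3% of 2-fold changes were recovered. In the data themselves 41.8% of all genes were called. The adjustment is stricter when fewer genes change, so the simulated share does not give the recovery in these data. Changes may still be missed with 3 mice per group.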
